A study of Mus musculus with 12 samples.

Results

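The expression of 10 genes used as markers of hepatic stellate cells and of mesenchyme more widely was examined in sorted fetal liver (FL) cells: *Acta2*, *Des*, *Vim*, *Pdgfra*, *Pdgfrb*, *Reln*, *Lrat*, *Hand2*, *Dcn*, and *Lum*. They were chosen by name, and each of the 10 names occurs once among the 38127 genes counted. Bulk RNA-seq was done on 12 libraries of cells sorted from the FL of C57BL/6 mice, in 4 groups of 3 replicates. All the sorted cells lacked Ter119 and CD45, so most erythroblasts and leukocytes were excluded by the sort. The P2 group was sorted at embryonic day (E) 14.5 as Kit+CD24+ cells without CD54 and CD31, and the study describes these cells as erythroid progenitors. The CD31+ group at E14.5 held CD54+CD31+ cells, which include the endothelium. The CD54+CD31- group was sorted at E14.5 and again at E18.5, and the study's text uses CD324+, the name for epithelial cadherin, for the E14.5 cells, which include hepatoblasts. The study states independent litters for the E14.5 populations, and its text does not describe the E18.5 libraries. No gate selected stellate cells, so the 10 genes were read in populations sorted for other cells. In bulk samples, fewer cells of a type and less RNA per cell cannot be told apart, and this holds for every level below.

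Hepatic stellate cells lie between the endothelium and the hepatocytes of the liver, store retinoids as esters, and become matrix-producing myofibroblasts after injury. In the embryo they are thought to derive from the mesothelium and the mesenchyme of the septum transversum. The genes have different jobs: *Acta2* encodes smooth muscle actin, *Des* and *Vim* encode intermediate filaments, *Pdgfra* and *Pdgfrb* encode the receptors of platelet-derived growth factors, and *Dcn* and *Lum* encode small proteoglycans that bind collagen fibrils. *Reln* encodes reelin, a large secreted glycoprotein known for guiding neurons and also made in the liver, *Lrat* encodes the enzyme that esterifies retinol, and *Hand2* encodes a transcription factor of mesenchyme, heart, and sympathetic neurons.

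Total counts ranged from 40714017 to 64368883 per library, and levels are given in CPM (edgeR's scaling by depth and TMM factor, with the 12 libraries normalized together). The summed level of 10 hepatoblast markers was 69593 to 79924 CPM in the CD54+CD31- E14.5 libraries and 679 to 917 in the P2 and CD31+ libraries, and 10 endothelial markers summed to 9390 to 9959 in CD31+ cells. The E18.5 libraries went against a purely hepatic label. Their 10 hepatoblast markers summed to 5802 CPM in replicate 1, 36045 in replicate 2, and 46352 in replicate 3, so replicate 1 stands apart. It was the lowest E18.5 library for 6 of these markers and the highest for the other 4. At the same time 10 lung epithelium markers summed to between 8912 and 20156 CPM at E18.5, against at most 16.1 in any E14.5 library. The 10 mesothelium markers summed to between 1468 and 2225, against at most 207. *Alcam* (690 to 916 CPM) was the largest part of the mesothelium sum at E18.5, and *Wt1* (26.9 to 31.5) and *Upk1b* (22.8 to 28.9) were small parts. Changes between the ages were therefore also computed without replicate 1, where 36.8% of 16074 tested genes were higher at E18.5 and 35.9% lower.

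Of the 10 genes, 9 had at least 1 count and 8 passed the low count filter. *Lrat* had 0 counts in every library and *Hand2* too few for a test. The 8 tested genes fell into 3 patterns over the groups. *Reln* was highest in CD54+CD31- E14.5 cells, *Vim* was highest in CD31+ cells, and *Acta2*, *Des*, *Pdgfra*, *Pdgfrb*, *Dcn*, and *Lum* were lowest in P2 cells, higher in CD54+CD31- cells at E14.5, and highest at E18.5. On the log2(CPM + 1) scale, with each gene centred on its mean over the 12 libraries, any pair among these 6 genes differed by a root mean square of 0.24 to 1.06. *Reln* differed from the 6 by 1.56 to 2.23, *Vim* differed from them by 2.41 to 2.84, and *Reln* and *Vim* differed from each other by 3.49. The 10 names thus do not share 1 pattern in these libraries.

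**Figure D1:**
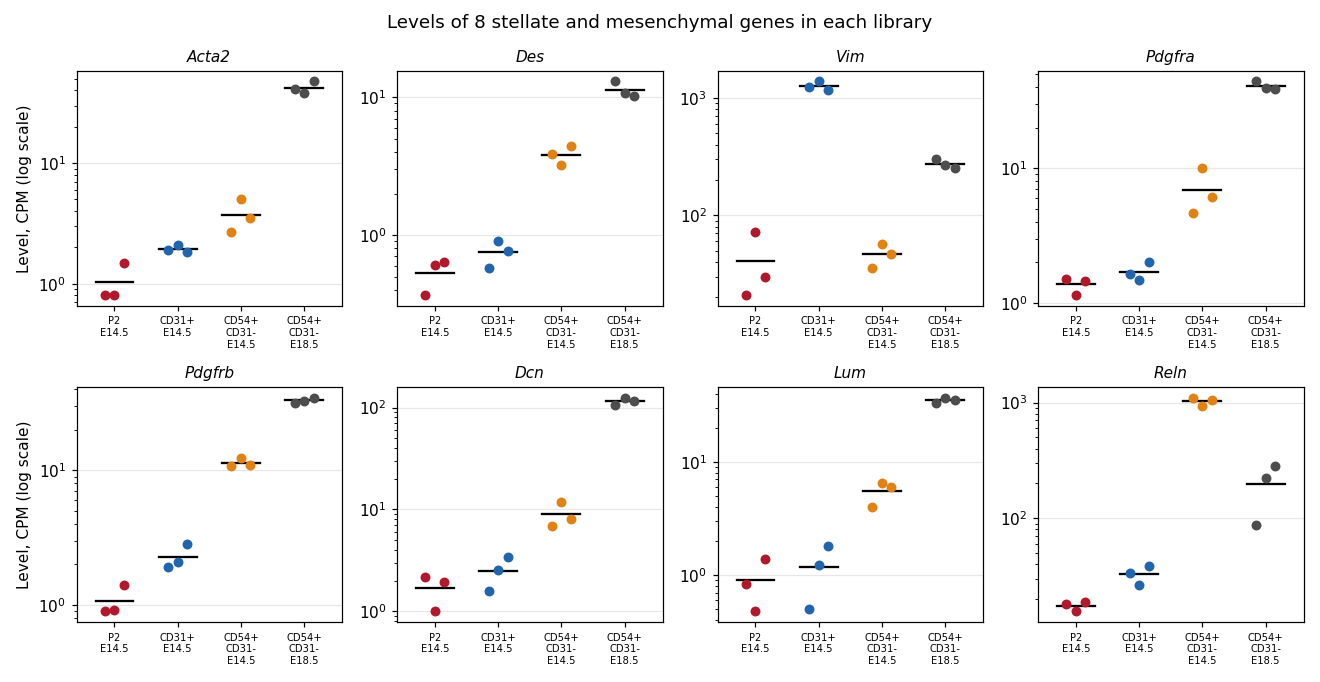
Level of each of 8 genes in the 12 libraries, in CPM on a log axis of its own for each gene, with 1 point per library in the order of the replicate numbers and a line at the mean of the group. *Reln* peaks in CD54+CD31- E14.5 cells (mean 1025 CPM), *Vim* in CD31+ cells (mean 1263 CPM), and the other genes shown in CD54+CD31- E18.5 cells.

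Calls were made at an adjusted p below 0.05 with edgeR's quasi-likelihood test over all tested genes. Against P2 cells, 7 of the 8 tested genes were higher in CD54+CD31- E14.5 cells, where 36.1% of all 15461 tested genes were higher and 33.8% lower. Against P2 cells, 4 of the 8 were higher in CD31+ cells, where 39.4% of all genes were higher and 34.3% lower. Between CD54+CD31- and CD31+ cells at E14.5, 7 of the 8 were higher in CD54+CD31- cells and 1, *Vim*, was higher in CD31+ cells, where 34% and 31.7% of all genes were called in these directions. Between the ages, 7 of the 8 were higher at E18.5 than in CD54+CD31- E14.5 cells and 1, *Reln*, was lower, where 35.9% of 15863 tested genes were higher and 33.5% lower. Counts for the lists below are to be set against these shares. A listed gene at or near 0 in CD54+CD31- E14.5 cells entered the last comparison through the E18.5 libraries alone. Such a gene could only be called higher at E18.5. The comparisons share groups and are not independent of each other. The median log2 fold change of the 8 genes in these comparisons was 2.52, 0.75, 2.12, and 2.75, against 0.011, 0.13, 0.031, and 0.033 for all tested genes. With the authors' scaling factors in place of TMM, the share of all calls that were higher went from 51.7% to 61.8% for CD54+CD31- against P2 cells and from 53.4% to 66.1% for CD31+ against P2 cells. With these factors 7 of the 8 genes were called higher in CD31+ than in P2 cells.

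**Figure D2:**
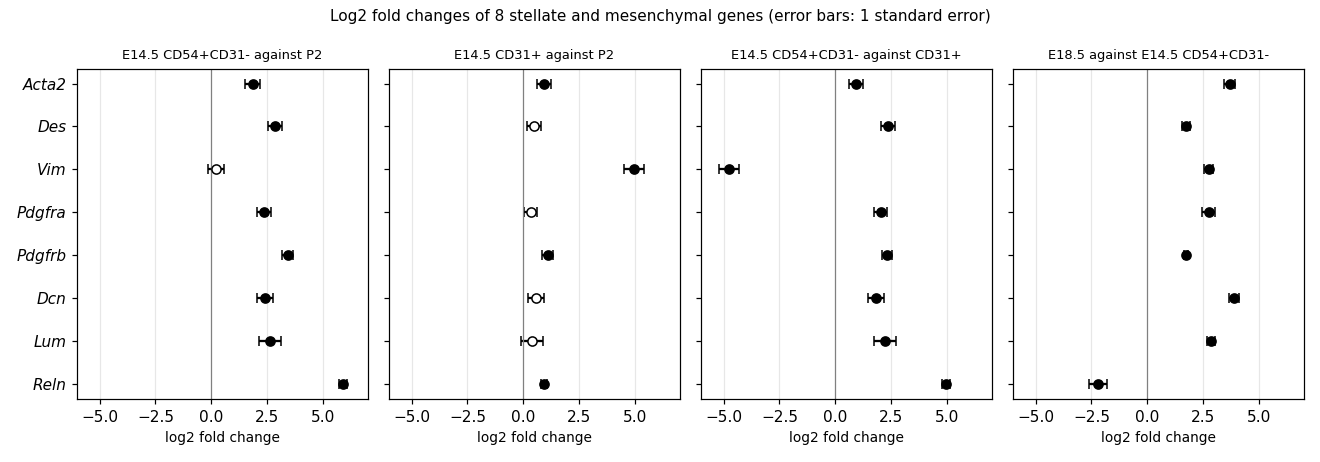
Log2 fold change of 8 genes (x axis, first group over second) in each of 4 comparisons, with error bars of 1 standard error, filled points for calls and open points for values not called. *Reln* and *Vim* lie on opposite sides of 0 between CD54+CD31- and CD31+ cells (4.96 and -4.76).

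*Reln* (ENSMUSG00000042453, GRCm38 chromosome 5, 21884454 to 22344702, minus strand) had the largest difference of the 8 genes. The 250 bases before its RefSeq start (GRCm38.p6, chr5:22344706-22344955, minus strand) are printed because the level of *Reln* separated the groups most, and can be set against the windows of *Des* and *Pdgfra* given with those genes. Capitals mark the GC box (GGGCGG or CCGCCC) and the E-box (CANNTG), searched on both strands. No marked match overlaps another.
Reln: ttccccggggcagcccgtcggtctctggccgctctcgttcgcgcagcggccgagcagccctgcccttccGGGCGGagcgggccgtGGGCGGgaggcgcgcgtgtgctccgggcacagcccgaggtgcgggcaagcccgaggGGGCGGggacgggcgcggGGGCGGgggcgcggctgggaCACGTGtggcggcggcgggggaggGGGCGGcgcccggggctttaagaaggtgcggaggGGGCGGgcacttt
The window is 80.0% G and C, against a median of 52.0% over the windows of 27025 genes, and holds 6 GC boxes and 1 E-box. A GC box is found in 32.9% of the windows, 6 or more in 0.577%, and an E-box in 66.0%. A match describes the letters and is not evidence of binding.

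In the CD54+CD31- E14.5 libraries *Reln* had 1101, 930, and 1044 CPM (replicates 1 to 3). It had 33.9, 26.5, and 38.9 CPM in CD31+ cells and 18.0, 15.7, and 19.0 CPM in P2 cells. All 3 CD54+CD31- libraries lay far above the others, and the 3 E14.5 groups did not overlap. *Reln* was 59.2-fold higher in CD54+CD31- than in P2 cells (log2 fold change 5.89, standard error 0.18, edgeR adjusted p = 8.38e-10) and 31.1-fold higher than in CD31+ cells (4.96, standard error 0.17, edgeR adjusted p = 2.59e-09). It was also 1.90-fold higher in CD31+ than in P2 cells (0.93, standard error 0.14, edgeR adjusted p = 0.000188).
At E18.5 the *Reln* level was 87.7, 222, and 285 CPM. Replicate 1 was the lowest, as it was for 6 of the 10 hepatoblast markers, and each E18.5 library lay below each E14.5 library of the same phenotype. The mean fell from 1025 ± 86.8 to 198 ± 101 CPM (SD, n = 3, log2 fold change -2.20, standard error 0.41, edgeR adjusted p = 0.00274). Without E18.5 replicate 1 the log2 fold change was -1.85 (standard error 0.15, edgeR adjusted p = 7.77e-06). *Reln* was set against *Hnf4a*, a transcription factor of hepatocytes and hepatoblasts, and *Alb*, the albumin gene. The ratio of *Reln* to *Hnf4a*, both in CPM, was 1.70 to 1.92 in CD54+CD31- E14.5 cells and 1.92 to 2.52 in P2 cells, 2 groups whose *Reln* levels differ 59.2-fold. The ratio was 3.46 to 4.61 in CD31+ cells, and at E18.5 it was 5.61 in replicate 1, 1.82 in replicate 2, and 1.72 in replicate 3. The ratio of *Reln* to *Alb* was 0.0200 to 0.0269 in CD54+CD31- E14.5 cells, 0.0415 to 0.0488 in P2 cells, and 0.0549 to 0.0835 in CD31+ cells, and at E18.5 it was 0.0365, 0.00833, and 0.00824 in replicates 1 to 3. Unlike the ratio to *Hnf4a*, that to *Alb* was lower in E18.5 replicates 2 and 3 than in every E14.5 library. The part of hepatoblasts in the *Reln* level was not tested.

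The reelin pathway runs from the secreted ligand through the receptors VLDLR and ApoER2 (*Lrp8*) to the adaptor *Dab1*, and 4 genes were read, these 3 and *Dab2*, a related endocytic adaptor. *Vldlr* had 44.8, 46.3, and 49.5 CPM in CD54+CD31- E14.5 cells, at most 0.558 in P2 cells, and at most 2.14 in CD31+ cells. *Reln* and this receptor gene were thus highest in the same E14.5 group, unlike the other receptor gene, *Lrp8*. *Vldlr* was higher in CD54+CD31- than in P2 cells by a log2 fold change of 6.73 (standard error 0.29, edgeR adjusted p = 1.38e-08), and *Dab1* by 4.70 (standard error 0.31, edgeR adjusted p = 2.75e-07). *Lrp8* had another pattern, with 36.0 ± 2.03 CPM in P2, 28.0 ± 2.10 in CD54+CD31-, and 8.32 ± 1.33 in CD31+ cells (SD, n = 3), and *Dab2* was highest in CD31+ cells (646 ± 26.5 CPM, SD, n = 3). At E18.5 *Lrp8* fell to 1.55 ± 0.851 CPM (SD, n = 3, log2 fold change -3.99, standard error 0.43, edgeR adjusted p = 0.000242), while *Vldlr* had 87.8, 56.6, and 48.3 CPM (0.65, standard error 0.23, edgeR adjusted p = 0.0404). Without E18.5 replicate 1 the log2 fold changes were -3.63 for *Lrp8* and 0.33 for *Vldlr* (edgeR adjusted p = 3.67e-07 and 0.0109). The *Vldlr* call ended without any one of E14.5 replicates 1 to 3 or E18.5 replicate 2 (adjusted p 0.0507 to 0.111).

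*Vim* (ENSMUSG00000026728, chromosome 2, 13573927 to 13582826) had 1234, 1382, and 1174 CPM in CD31+ cells. It had 35.7, 57.4, and 46.5 CPM in CD54+CD31- E14.5 cells and 20.9, 71.4, and 30.1 CPM in P2 cells. The CD31+ libraries stood clear of both, and the other 2 E14.5 groups overlapped. *Vim* was 31.2-fold higher in CD31+ than in P2 cells (log2 fold change 4.96, standard error 0.43, edgeR adjusted p = 2.48e-06) and 27.0-fold higher than in CD54+CD31- cells (log2 fold change of CD54+CD31- over CD31+ -4.76, standard error 0.43, edgeR adjusted p = 3.96e-06). Between CD54+CD31- and P2 cells the log2 fold change was 0.21 (standard error 0.37, edgeR adjusted p = 0.635). The value turned on single P2 libraries. P2 replicate 2 was the highest P2 library for *Vim* and for the 10 endothelial markers, which summed to 58.8, 389, and 105 CPM in P2 replicates 1 to 3. Without replicate 2 the log2 fold change was 0.87 (standard error 0.20, edgeR adjusted p = 0.00245), and without P2 replicate 1 it was -0.096 (edgeR adjusted p = 0.800). The part of endothelial RNA in the P2 level of *Vim* was not tested.
At E18.5 *Vim* had 300, 268, and 254 CPM, all above the E14.5 libraries of the same phenotype and all below the CD31+ libraries. The rise between the ages was 6.73-fold (log2 fold change 2.75, standard error 0.19, edgeR adjusted p = 4.29e-05), and 6.33-fold without E18.5 replicate 1. The endothelial markers also rose between the ages, all 10 of them, from a sum of 40.2 to 68.7 CPM at E14.5 to 181 to 234 at E18.5. The ratio of *Vim* to *Pecam1*, the gene of CD31, was 2.11 to 2.16 in CD31+ cells, 6.28 to 8.60 in CD54+CD31- E14.5 cells, and 13.5 to 19.3 at E18.5. The ratio of *Vim* to *Kdr*, another endothelial gene, was 0.575 to 0.637 in CD31+ cells, 4.93 or more in CD54+CD31- E14.5 cells, and 4.54 to 5.63 at E18.5, so it overlapped between the ages, with the higher values at E14.5. *Nes*, which encodes another intermediate filament, was also highest in CD31+ cells at E14.5, with 355 ± 27.7 CPM in CD31+ cells, 8.53 ± 7.44 in P2 cells, and 7.20 ± 0.459 in CD54+CD31- cells (SD, n = 3). It was higher in CD31+ than in P2 cells by a log2 fold change of 5.39 (standard error 0.54, edgeR adjusted p = 6.87e-06).

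*Des* (ENSMUSG00000026208, chromosome 1, 75360329 to 75368579) encodes desmin, a filament of muscle and a classic marker of rodent stellate cells. The window before its RefSeq start (GRCm38.p6, chr1:75360042-75360291, plus strand) is shown as one of the genes that rose towards E18.5, with the same marks.
Des: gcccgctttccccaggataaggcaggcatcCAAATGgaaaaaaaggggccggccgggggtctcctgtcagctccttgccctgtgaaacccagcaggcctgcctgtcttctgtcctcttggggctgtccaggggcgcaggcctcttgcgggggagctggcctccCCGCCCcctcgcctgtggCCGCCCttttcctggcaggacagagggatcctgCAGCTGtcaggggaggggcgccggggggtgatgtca
It is 67.2% G and C and holds 2 GC boxes and 2 E-boxes. The CArG box, the element of serum response factor at muscle genes, has no match in these letters or in those of *Reln* and *Pdgfra*, and is found in 378 of the 27025 windows.
*Des* had 3.85, 3.21, and 4.44 CPM in CD54+CD31- E14.5 cells, 0.575, 0.909, and 0.761 in CD31+ cells, and 0.367, 0.604, and 0.635 in P2 cells. The CD54+CD31- libraries lay above the other E14.5 groups, which overlapped each other. *Des* was 7.20-fold higher in CD54+CD31- than in P2 cells (log2 fold change 2.85, standard error 0.31, edgeR adjusted p = 1.51e-05) and 5.14-fold higher than in CD31+ cells (2.36, standard error 0.30, edgeR adjusted p = 5.81e-05). The difference of 0.49 between CD31+ and P2 cells was not called (standard error 0.31, edgeR adjusted p = 0.184). At E18.5 the values were 13.0, 10.7, and 10.2 CPM, a 3.35-fold rise (log2 fold change 1.74, standard error 0.18, edgeR adjusted p = 0.000215).

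*Acta2* (ENSMUSG00000035783, chromosome 19, 34241090 to 34255590, minus strand) marks smooth muscle and activated stellate cells. It had 2.66, 5.00, and 3.53 CPM in CD54+CD31- E14.5 cells, 1.90, 2.10, and 1.84 in CD31+ cells, and 0.804, 0.812, and 1.48 in P2 cells. The groups did not overlap, yet every E14.5 library was low, at 159 counts or fewer. *Acta2* was 3.63-fold higher in CD54+CD31- than in P2 cells (log2 fold change 1.86, standard error 0.33, edgeR adjusted p = 0.000453). The smaller steps, CD31+ over P2 (0.92, standard error 0.32, edgeR adjusted p = 0.0245) and CD54+CD31- over CD31+ (0.94, standard error 0.31, edgeR adjusted p = 0.0218), depended on single libraries. Leaving out any of CD31+ replicates 2 and 3 or P2 replicates 1 and 2 ended the first call (adjusted p 0.0548 to 0.114), and leaving out CD54+CD31- replicate 2 or CD31+ replicate 1 ended the second (adjusted p 0.0753 and 0.0517). At E18.5 *Acta2* had 41.1, 37.8, and 47.5 CPM, a 12.9-fold rise (log2 fold change 3.69, standard error 0.24, edgeR adjusted p = 3.68e-05).
A list of 13 other smooth muscle contractile genes did not take the pattern of *Acta2* as a whole. Between the ages 11 of the 13 rose and 1 fell, with a median log2 fold change of 1.78. The gene that fell was *Cald1*, for the actin-binding protein caldesmon, from 838 ± 46.8 to 277 ± 96.1 CPM (SD, n = 3, log2 fold change -1.42, standard error 0.26, edgeR adjusted p = 0.00278). At E14.5, 5 of the 11 tested were lower in CD54+CD31- than in CD31+ cells and 1 was higher, again *Cald1*. *Mylk*, for myosin light chain kinase, and *Smtn*, for smoothelin, were among those higher in CD31+ cells, at 91.6 ± 3.90 against 35.7 ± 2.03 CPM and 141 ± 16.0 against 38.4 ± 4.34 CPM (SD, n = 3).

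The PDGF receptor genes were separated from both other E14.5 groups in CD54+CD31- cells. The window before the RefSeq start of *Pdgfra* (ENSMUSG00000029231, chromosome 5, 75152292 to 75198215) at chr5:75152001-75152250 of GRCm38.p6, plus strand, is given with the same marks as a member of the same pattern as *Des*.
Pdgfra: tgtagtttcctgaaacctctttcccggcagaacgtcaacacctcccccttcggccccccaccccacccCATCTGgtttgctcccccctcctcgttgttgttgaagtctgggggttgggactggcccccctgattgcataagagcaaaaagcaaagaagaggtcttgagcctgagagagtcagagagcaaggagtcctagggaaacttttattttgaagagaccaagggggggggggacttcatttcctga
It is 54.4% G and C, with 1 E-box and no GC box in these letters.
*Pdgfra*, the receptor of most mesenchymal progenitors and fibroblasts, had 4.64, 10.1, and 6.12 CPM in CD54+CD31- E14.5 cells, 1.63, 1.48, and 2.00 in CD31+ cells, and 1.49, 1.14, and 1.46 in P2 cells. Replicate 2 of the CD54+CD31- group was the highest, as it was for *Acta2*, *Dcn*, *Lum*, and *Col1a1*, and the lowest of that group still exceeded every CD31+ and P2 library. The level was 5.14-fold higher than in P2 cells (log2 fold change 2.36, standard error 0.30, edgeR adjusted p = 4.82e-05) and 4.08-fold higher than in CD31+ cells (2.03, standard error 0.30, edgeR adjusted p = 0.000152). CD31+ and P2 cells overlapped (0.33, standard error 0.30, edgeR adjusted p = 0.340). At E18.5 it had 44.2, 39.2, and 39.0 CPM, a 6.71-fold rise (2.75, standard error 0.28, edgeR adjusted p = 0.000182).

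*Pdgfrb* (ENSMUSG00000024620, chromosome 18, 61045150 to 61085061), the receptor of pericytes and stellate cells, had 10.8, 12.3, and 11.0 CPM in CD54+CD31- E14.5 cells, 1.90, 2.07, and 2.84 in CD31+ cells, and 0.896, 0.916, and 1.41 in P2 cells. It was the steadiest of the 6 genes within CD54+CD31- E14.5 cells, with a coefficient of variation of 7.30% against 40.6% for *Pdgfra*, and the 3 groups did not overlap. It was 10.7-fold higher in CD54+CD31- than in P2 cells (log2 fold change 3.42, standard error 0.24, edgeR adjusted p = 5.51e-07), 5.02-fold higher than in CD31+ cells (2.33, standard error 0.23, edgeR adjusted p = 7.40e-06), and 2.13-fold higher in CD31+ than in P2 cells (1.09, standard error 0.24, edgeR adjusted p = 0.00178). At E18.5 it had 31.9, 33.0, and 34.7 CPM, a 3.32-fold rise (1.73, standard error 0.094, edgeR adjusted p = 2.35e-05). The ratio of *Pdgfrb* to *Pdgfra*, both in CPM, was 1.22 to 2.32 in CD54+CD31- E14.5 libraries and 0.720 to 0.891 at E18.5, so the ratios of the ages did not overlap.

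The ligands are encoded by *Pdgfa*, *Pdgfb*, *Pdgfc*, and *Pdgfd*, and all 4 rose between the ages, with a median log2 fold change of 3.99. *Pdgfa* rose from 3.80 ± 0.812 to 66.1 ± 21.7 CPM and *Pdgfc* from 0.872 ± 0.0940 to 15.7 ± 0.289 CPM (SD, n = 3). At E14.5 the ligands were split between the populations. *Pdgfb* was highest in CD31+ cells (16.1 ± 2.68 against 2.35 ± 0.680 CPM in CD54+CD31- cells, SD, n = 3, log2 fold change of CD54+CD31- over CD31+ -2.76, standard error 0.55, edgeR adjusted p = 0.00130), whereas its receptor gene *Pdgfrb* was higher in CD54+CD31- cells. *Pdgfa* was higher in CD54+CD31- than in CD31+ cells (1.45, standard error 0.36, edgeR adjusted p = 0.00468).
Both receptor genes lie in clusters with related kinases. *Kit* and *Kdr*, the neighbours of *Pdgfra* on chromosome 5, had their highest E14.5 levels elsewhere, *Kit* in P2 cells (323 ± 32.0 CPM) and *Kdr* in CD31+ cells (2051 ± 115 CPM, SD, n = 3), while *Pdgfra* was highest in CD54+CD31- cells. *Kit* is part of the P2 gate, so its P2 level is no finding. *Csf1r*, the macrophage gene beside *Pdgfrb* on chromosome 18, had 33.8, 42.7, and 60.6 CPM in CD54+CD31- E14.5 cells, 11.8 ± 3.41 in CD31+ cells, and 1.28 ± 0.0604 in P2 cells (SD, n = 3), the same order as *Pdgfrb*. Between the ages *Csf1r* had a log2 fold change of -0.22 (standard error 0.42, edgeR adjusted p = 0.663), and of 0.14 without E18.5 replicate 1 (edgeR adjusted p = 0.544), while *Pdgfrb* rose.

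*Dcn* (ENSMUSG00000019929, chromosome 10, 97479609 to 97518143) and *Lum* (ENSMUSG00000036446, chromosome 10, 97565128 to 97572703) are neighbouring genes for decorin and lumican, proteoglycans that regulate the width of collagen fibrils. *Dcn* had 6.85, 11.8, and 8.14 CPM in CD54+CD31- E14.5 cells, 1.58, 2.55, and 3.41 in CD31+ cells, and 2.16, 0.999, and 1.93 in P2 cells. *Lum* had 4.02, 6.52, and 5.97 CPM in CD54+CD31- E14.5 cells, 0.503, 1.23, and 1.81 in CD31+ cells, and 0.827, 0.479, and 1.39 in P2 cells. For both genes the CD54+CD31- libraries were above all others at E14.5, and the CD31+ and P2 libraries overlapped. *Dcn* was 5.33-fold higher in CD54+CD31- than in P2 cells (log2 fold change 2.41, standard error 0.37, edgeR adjusted p = 0.000165) and *Lum* 6.17-fold (2.62, standard error 0.49, edgeR adjusted p = 0.000716). Against CD31+ cells the log2 fold changes were 1.83 for *Dcn* (standard error 0.35, edgeR adjusted p = 0.00104) and 2.22 for *Lum* (standard error 0.48, edgeR adjusted p = 0.00204). Between CD31+ and P2 cells, *Dcn* (0.58, edgeR adjusted p = 0.166) and *Lum* (0.40, edgeR adjusted p = 0.469) were not called.
At E18.5 *Dcn* had 107, 125, and 115 CPM and *Lum* 32.9, 36.9, and 35.1 CPM, all far above E14.5. *Dcn* rose 14.8-fold (log2 fold change 3.88, standard error 0.21, edgeR adjusted p = 2.35e-05), the largest rise of the 8 genes, and *Lum* rose 7.24-fold (2.86, standard error 0.18, edgeR adjusted p = 3.38e-05). The ratio of *Dcn* to *Lum*, both in CPM, went from 1.36 to 1.81 in the CD54+CD31- E14.5 libraries to 3.25 to 3.38 at E18.5, and was nearly the same in the 3 E18.5 libraries. *Kera* and *Epyc*, proteoglycan genes in the same cluster, were at or near 0, with at most 0.113 CPM in any library. A high level thus did not extend to *Kera*, whose span no other gene overlaps. For *Epyc* 40.6% of the exon bases overlap a gene of the opposite strand, so its level is uncertain.

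Among 9 other genes of small leucine-rich proteoglycans, 4 were tested and all 4 rose between the ages, with a median log2 fold change of 3.87. *Bgn*, for biglycan, was highest at E18.5 (151 ± 11.5 CPM) and differed from *Dcn* at E14.5, where it was higher in CD31+ (83.2 ± 5.87 CPM) than in CD54+CD31- cells (19.6 ± 1.37 CPM, SD, n = 3). *Fmod*, for fibromodulin, rose from 1.64 ± 0.917 to 92.4 ± 6.37 CPM between the ages (SD, n = 3, log2 fold change 6.02, standard error 0.42, edgeR adjusted p = 4.64e-05).
Of 14 fibroblast matrix genes, 13 rose between the ages, with a median log2 fold change of 5.10. *Col1a1* and *Col3a1*, for the fibrillar collagens, went from 47.9 ± 20.9 to 1648 ± 66.7 CPM and from 55.4 ± 20.8 to 1456 ± 112 CPM (SD, n = 3). Their log2 fold changes of 5.30 and 4.91 were above those of *Dcn* and *Lum* and below that of *Fmod*. The ratio of *Dcn* to *Col1a1* went from 0.164 to 0.210 in the CD54+CD31- E14.5 libraries to 0.0622 to 0.0771 at E18.5. *Fn1*, for fibronectin, was the exception among the 14, with 1035, 4732, and 6451 CPM at E18.5 against 5343 ± 481 (SD, n = 3) at E14.5, and it was lowest in E18.5 replicate 1, as 6 of the 10 hepatoblast markers were. At E14.5, 10 of the 13 tested matrix genes were higher in CD54+CD31- than in P2 cells and 3 were not called. *Sparc*, for osteonectin, was highest at E14.5 in CD31+ cells (1168 ± 98.6 CPM, SD, n = 3), like *Vim*.

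*Lrat* (ENSMUSG00000028003, chromosome 3, 82892579 to 82903973, minus strand) had 0 counts in each of the 12 libraries, which by counting error alone allows up to 0.0737 CPM of the total count (3 counts in the shallowest library). This 0 cannot be read as absence of the transcript. The whole span of *Lrat* lies inside *Rbm46os*, a gene of the opposite strand, with no exon in common. Of 2527 genes placed in the same way, 91.9% had 0 counts in all 12 libraries (95% Wilson interval 90.8% to 92.9%), against 34.1% of 20593 genes that no other gene overlaps (33.4% to 34.7%). Whether the counting used the strand, and how it treated reads that fall in 2 genes, is not given in the sources used here. All 8 of the 216 listed genes with 0 counts in every library lie wholly inside another gene, among them *Foxf1*, a mesenchymal transcription factor, and the proteoglycan genes *Aspn*, *Ogn*, and *Omd*. Other listed genes placed as *Lrat* is were counted, such as *Tcf21* (2498 counts over the 12 libraries), *Actc1* (2146), and *Gfap* (1624). The classes compared were not matched for gene type or level, and whether the overlap gave the 0 of *Lrat* was not tested.
*Hand2* (ENSMUSG00000038193, chromosome 8, 57320983 to 57324633) had 0 counts in the 9 E14.5 libraries and 14, 10, and 8 counts in E18.5 replicates 1 to 3. Set against a floor of 3 counts over the group, its level per total count was 8.12-fold higher at E18.5 than in CD54+CD31- E14.5 cells. This fold would be lower with the TMM scaling used for the other levels, and it leaves out the counting error at E18.5. *Hand2os1* covers 89.0% of the span of *Hand2* on the opposite strand, so the level of *Hand2* too is uncertain. *Hand1*, a related factor whose span no other gene overlaps, had 0.0916 ± 0.0259 CPM at E14.5 and 0.431 ± 0.0280 at E18.5 in CD54+CD31- cells (SD, n = 3).

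**Figure D3:**
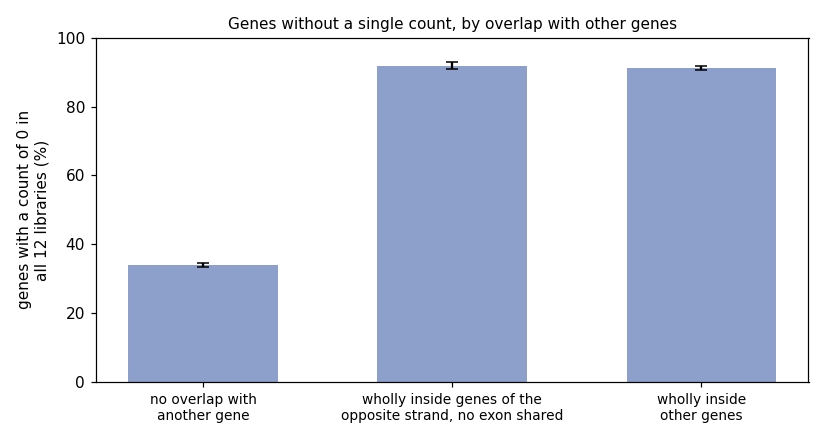
Share of genes with 0 counts in all 12 libraries (bars, in %, with 95% Wilson intervals) for genes overlapped by no other gene, genes wholly inside genes of the opposite strand with no exon shared, as *Lrat* is, and genes wholly inside any other genes. The shares are 34.1%, 91.9%, and 91.2%.

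The other retinoid handling genes were measured, 12 of 15 with enough counts at E14.5. Of these, 7 were higher in CD54+CD31- than in P2 cells and 1 lower, and 9 were higher in CD31+ than in P2 cells and 2 lower. *Rbp4*, the plasma retinol carrier made by hepatocytes, was highest in CD54+CD31- E14.5 cells (2786 ± 308 CPM, SD, n = 3). *Dhrs3*, which turns retinal back to retinol, was higher in both CD54+CD31- (75.3 ± 9.10 CPM) and CD31+ cells (106 ± 22.9 CPM) than in P2 cells (4.91 ± 2.79 CPM, SD, n = 3).
Of 15 measured mesenchymal transcription factor genes, 9 were tested at E14.5, and 8 of the 9 were higher in CD31+ than in P2 cells. *Gata4*, a factor of liver endothelium and of stellate cells, had 325 ± 33.6 CPM in CD31+ cells and 12.3 ± 1.39 in CD54+CD31- E14.5 cells, and *Gata6* had 10.7 ± 0.327 and 31.3 ± 1.83 (SD, n = 3). Between the ages 10 of 14 tested factors rose and 1 fell. Of 11 TGF-beta pathway genes 10 rose, where 35.9% of all tested genes were higher. Factors at or near 0 at E14.5 passed the filter through the E18.5 libraries alone and could only be called higher.

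A list of 14 other genes reported in stellate cells also held more than 1 pattern. Of the 13 tested at E14.5, 10 were higher in CD54+CD31- than in P2 cells, 8 were higher in CD31+ than in P2 cells, and between CD54+CD31- and CD31+ cells 9 were higher and 3 lower. *Cxcl12*, a chemokine of perivascular stroma, followed *Reln*, with 168, 169, and 169 CPM in CD54+CD31- E14.5 cells, 5.58 ± 0.482 in CD31+ cells, 3.36 ± 0.442 in P2 cells, and 62.9 ± 14.2 at E18.5 (SD, n = 3). *Hlx* and *Ecm1*, a transcription factor and a matrix protein, were instead highest in CD31+ cells (61.1 ± 1.94 and 28.8 ± 3.68 CPM), and *Colec10*, a collectin, at E18.5 (50.2 ± 19.1 CPM, SD, n = 3). Between the ages 11 of the 14 rose and 3 fell, with a median log2 fold change of 2.08.

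The spread over the E18.5 libraries also set *Reln* apart. *Reln* in E18.5 replicate 1 was 0.347 of the mean of replicates 2 and 3, while the 10 hepatoblast markers were split. That ratio was 0.0716 to 0.109 for *Apoa1*, *Alb*, *Afp*, *Serpina1a*, *Ttr*, and *Hnf4a*, but 1.29 for *Krt18*, 1.35 for *Foxa2*, 1.38 for *Cdh1*, and 1.67 for *Dlk1*. For *Acta2*, *Des*, *Vim*, *Pdgfra*, *Pdgfrb*, *Dcn*, and *Lum* that ratio was between 0.894 (*Dcn*) and 1.24 (*Des*). All 10 lung epithelium markers were highest in replicate 1, with ratios of 1.24 to 3.90 (2.36 for *Sftpc*, a surfactant gene). Of the 10 mesothelium markers, 7 were highest in replicate 1, with ratios up to 2.32, *Gpm6a* (1.05) and *Muc16* (0.957) lay between the other libraries, and *Wt1* (0.890) was lowest. Within the set, the narrow range holds for these 7 genes only, since *Reln* and *Hand2* (1.80, at 14 counts or fewer) lay outside it. With both, the ratios of the set ran from 0.347 to 1.80. The range was not particular to the set. The 14 matrix genes ran from 0.185 to 2.06 (median 1.26), with *Col1a1* (1.07), *Col3a1* (1.13), and *Postn* (0.905) inside it. The 9 lung mesenchyme markers ran from 0.898 to 2.44 (median 1.39), with *Itga8* (0.898) and *Hhip* (1.10) inside it. Without replicate 1, the log2 fold changes of the 7 genes between the ages were 1.61 (*Des*) to 3.92 (*Dcn*), and all 7 were called. For the other lists whose numbers called between the ages are given here, these numbers were the same without replicate 1, with 1 exception. Among the mesenchymal transcription factors, *Zeb1* was added to those that fell (-0.21, edgeR adjusted p = 0.0316). In the reelin pathway, *Dab1* was called higher at E18.5 only without replicate 1 (0.77, edgeR adjusted p = 0.00480). Medians without it were 1.86 for the smooth muscle, 3.85 for the PDGF ligand, 3.85 for the proteoglycan, 5.00 for the matrix, and 2.30 for the other stellate cell genes. *Cald1* (-1.18), *Fmod* (5.97), and *Cxcl12* (-1.08) stayed called in the same direction.
Markers of other tissues rose with the 7 genes at E18.5. Called higher than in CD54+CD31- E14.5 cells were all 10 mesothelium markers and 9 of 10 lung epithelium markers. So were 9 of 9 tested lung mesenchyme and 7 of 7 tested heart muscle markers, where 35.9% of all tested genes were higher. Markers at or near 0 at E14.5 were tested only because of their E18.5 counts, so these numbers were partly set by the filter. Lung mesenchyme markers summed to 806, 512, and 500 CPM in E18.5 replicates 1 to 3, against 14.0 to 16.5 at E14.5, and heart muscle markers to 376, 194, and 175, against 0.987 to 2.74. *Foxf1* was the only gene of these 4 lists at 0 in all E18.5 libraries. Skeletal muscle markers summed to at most 2.85 CPM at E18.5. The 7 genes are expressed in the mesenchyme of many organs, and the organ they came from at E18.5 was not tested.

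**Figure D4:**
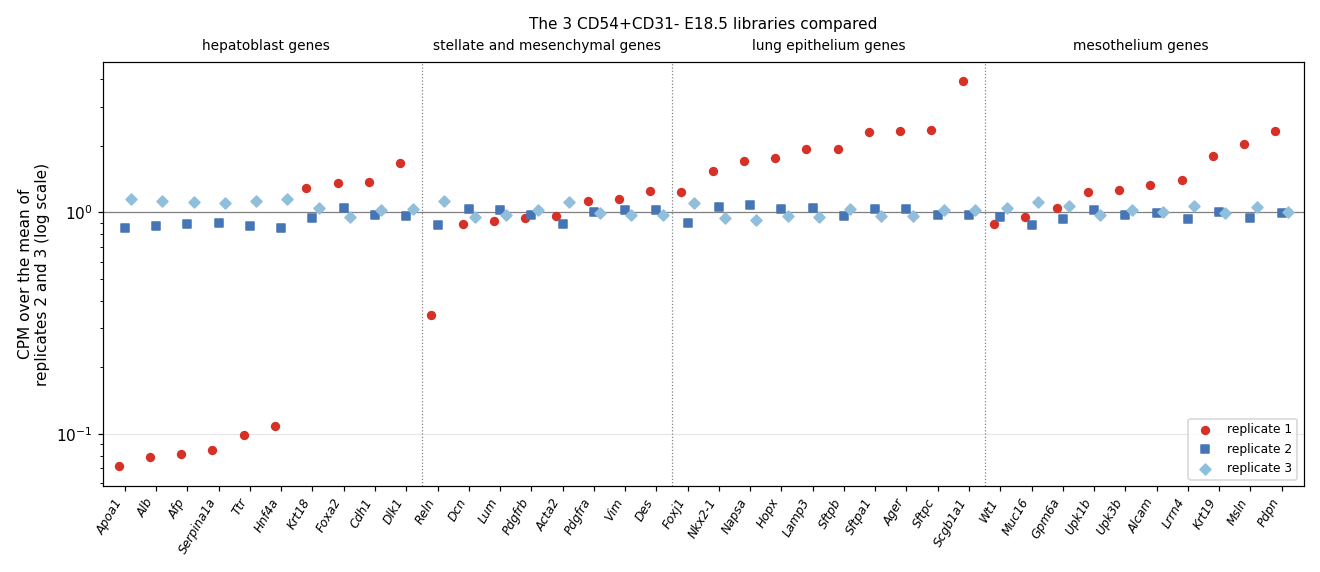
Level of each hepatoblast, lung epithelium, and mesothelium marker and of 8 stellate and mesenchymal genes in the 3 CD54+CD31- E18.5 libraries, as CPM over the mean of replicates 2 and 3 (log axis, 1 point per library, genes of a list in the order of replicate 1). Replicate 1 lies at 0.0716 to 0.109 for 6 hepatoblast markers and at 1.29 to 1.67 for the other 4, at 0.347 for *Reln*, between 0.894 and 1.24 for the other 7 genes of the set, and at 1.24 to 3.90 for the lung epithelium markers.

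Levels can be set between genes only per length, and the length to use is uncertain here, since reads of a total RNA library may also come from introns. Per kilobase of exon, *Reln* was the highest of the 10 genes in CD54+CD31- E14.5 cells (43.2 CPM per kilobase), followed by *Vim* (9.80), *Lum* (2.25), *Pdgfrb* (2.07), *Acta2* (1.70), *Dcn* (1.53), *Des* (1.02), and *Pdgfra* (0.694). Per kilobase of gene span, *Vim* (5.22) came before *Reln* (2.23), whose span is 460249 bases. *Vim* led in CD31+ cells on both scales (266 per kilobase of exon and 142 per kilobase of span). At E18.5 *Vim* again led per kilobase of exon (57.8), followed by *Dcn* (19.8), *Acta2* (19.2), *Lum* (14.3), *Reln* (8.34), *Pdgfrb* (6.06), *Pdgfra* (4.07), and *Des* (3.01). Per kilobase of span the order after *Vim* (30.8) was *Lum* (4.62), *Dcn* (3.00), *Acta2* (2.91), *Des* (1.37), *Pdgfra* (0.889), *Pdgfrb* (0.831), and *Reln* (0.430). The place of *Reln* therefore changed with the length used.

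The genes whose profiles were most like each member were taken as the 3 with the smallest root mean square difference of centred log2(CPM + 1) over the 12 libraries. For *Reln* they were *Sema4a* (0.19), *Igdcc4* (0.21), and *Cdh2* (0.22), and for *Vim* *Sh3tc1* (0.18), *Trp53i11* (0.24), and *Cd34* (0.27), a gene of endothelium and progenitors. *Dcn* was nearest to *Postn* (0.25), *Capn6* (0.29), and *Col6a3* (0.32), 2 of which, *Postn* and *Col6a3*, are among the 14 matrix genes. *Lum* was nearest to *Gdf10* (0.20), *Capn6* (0.26), and *Sfrp1* (0.32), and *Pdgfra* to *Sfrp1* (0.20), *Gdf10* (0.20), and *Tmtc1* (0.26). *Lum* and *Pdgfra* thus shared *Gdf10* and *Sfrp1*, and *Lum* and *Dcn* shared *Capn6*. *Acta2* was nearest to *Ddr2* (0.23), *Svep1* (0.26), and *Cdh3* (0.28). *Des* was nearest to *Ncoa1* (0.17), *Plch1* (0.20), and *Slc4a3* (0.20). For *Pdgfrb*, *Prkaa2* (0.20) and *Pon1* (0.21) were the nearest.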

How the data were processed

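RNA-seq was done on 12 libraries of sorted FL cells. RNA was depleted of ribosomal sequences and made into libraries with a stranded total RNA kit. The authors trimmed reads with cutadapt 1.11, aligned them to GRCm38 with STAR 2.5.0a, and counted them per gene with featureCounts 1.4.6-p3, per the labels and the submitters' processing notes. They deposited raw counts and, in a second column, a rounded score equal to the count times a constant of that library. Values here come from the counts, and the score served to recover each library's constant, the authors' factor.

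Tests used edgeR 4.0.16 in R 4.3.3 (TMM, filterByExpr, quasi-likelihood test, Benjamini-Hochberg adjustment over all tested genes, adjusted p below 0.05). One fit held the 9 libraries of E14.5, and another the 6 libraries of the CD54+CD31- phenotype. A standard error is the absolute log2 fold change over the square root of F. Where the labels do not state separate animals, p-values measure the spread between the libraries. Total counts ranged from 40714017 to 64368883, so the 3 libraries per group, more than counting error, limit the precision. No 2 replicates were duplicates, since each pair differed beyond sampling noise (lowest chi-square over its degrees of freedom 42). The tests were tried on simulated counts. Alternatives were DESeq2 1.42.0, other scalings, filters, and fits, and each library left out in turn. Overlaps between genes were computed with bedtools 2.31.1 from GENCODE vM21 (GRCm38), which holds 37932 of the 38127 identifiers, and promoter sequences were taken from RefSeq (GRCm38.p6), where 7 of the 10 genes matched.

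The 10 genes and the lists were chosen with earlier results of these data known. Genes named are the 10, at most 4 of each list by the highest mean level among those called, the chromosomal neighbours of the 10, and the 3 genes nearest to each in profile. Some genes that this rule selects are not reported here. *Hand1*, *Rbm46os*, *Hand2os1*, *Foxf1*, *Aspn*, *Ogn*, *Omd*, *Tcf21*, *Actc1*, *Zeb1*, and the marker genes beside the E18.5 libraries were named in addition, after their values were seen.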

Additional observations from a re-analysis of the deposited data

How the results depend on the processing

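Each log2 fold change of the 8 tested genes was recomputed under up to 18 other settings per comparison, 544 values in all, of which 532 kept their direction and their side of the threshold. The number of genes called changed by over 1.5 times in 1 case: with the authors' factors, 7 of the 8 were called between CD31+ and P2 cells in place of 4, the added ones being *Des* (0.85), *Pdgfra* (0.71), and *Dcn* (0.96). These factors shifted the median log2 fold change of all genes by 0.26, 0.37, -0.11, and 0.23 in the 4 comparisons in the order given in the report, and the fit of all 12 libraries shifted the comparison of the ages by -0.19. A minimum of 10 counts shifted CD31+ against P2 cells by 0.14 and the ages by 0.15. With libraries left out in turn, 7 to 8, 3 to 4, 7 to 8, and 8 genes were called. Over these fits the value of *Vim* between CD54+CD31- and P2 cells ranged from -0.096 to 0.87 and that of *Lum* between CD31+ and P2 cells from -0.11 to 0.87. The direction turned for *Vim* between CD54+CD31- and P2 cells without P2 replicate 1 (-0.096) and for *Lum* between CD31+ and P2 cells without CD31+ replicate 3 (-0.11), neither of which was called. The cause was not tested. *Hand2* was called between the ages only with DESeq2 and without the low count filter, where 9 genes were called. With the replicate number as a block 7, 4, 8, and 8 genes were called, as without it. Same-numbered libraries had correlations of their deviations of 0.00379 to 0.169, so the numbers were not taken as pairing. The block changed no call of the 8 genes and ended those of *Vldlr* between the ages and of *Col1a1* between CD54+CD31- and CD31+ cells. Of 1775 values of named list genes, recomputed where the gene was called, 34 lost their call and none turned. Of 42 recomputed mean levels, 4 moved by more than 1 SD, all at E18.5 with DESeq2's size factors. With 3 libraries per group, the spread between libraries limits the precision.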

Other observations

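Markers of other sorted-out or neighbouring cells were also read at E14.5. Of 9 tested macrophage markers, 8 were higher in CD54+CD31- than in P2 cells, where 36.1% of all tested genes were higher. All 9 were higher in CD31+ than in P2 cells, where 39.4% of all genes were, although CD45+ cells had been excluded by the sort. Between CD54+CD31- and CD31+ cells 7 of the 9 were higher and 1, *Mrc1*, was lower (log2 fold change -5.67). The 10 macrophage markers summed to 179 to 295 CPM in CD54+CD31- cells, 1365 to 1630 CPM in CD31+ cells, and 16.2 to 66.3 CPM in P2 cells. These sums mostly follow *Mrc1*, with a mean of 376 CPM over the 12 libraries, against 23.3 for *Csf1r*, the next highest. Between CD54+CD31- and CD31+ cells the sums thus ran against the 7 markers that were higher in CD54+CD31- cells. The cells that gave these levels were not tested. All 6 megakaryocyte markers were higher in CD31+ than in P2 cells, with sums of 282 to 507 against 30.8 to 80.8 CPM. Neuron and neural crest markers summed to at most 4.17 CPM in any library.

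*Prph*, which encodes peripherin, an intermediate filament of peripheral neurons, had 1.75 ± 0.0933 CPM in CD54+CD31- E14.5 cells and 0.0604 ± 0.0540 in P2 cells (SD, n = 3, log2 fold change 4.78, standard error 0.70, edgeR adjusted p = 0.000130). *Gfap*, the gene of another intermediate filament reported in stellate cells, was instead highest in P2 cells (5.05 ± 0.563 CPM, SD, n = 3), and its span lies wholly inside a gene of the opposite strand.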
